A study of Saccharomyces cerevisiae with 5 samples.

Results

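The transcripts of cytosolic ribosomal proteins were compared between wild-type yeast and yeast that lacks RSF2. Members were the genes named RPL or RPS with a number and, for duplicated genes, A or B, together with RPP0, RPP1A, RPP1B, RPP2A and RPP2B, provided that the array carries a probe set listed for that gene alone. Of 137 such genes in the yeast gene table, 80 met this condition, among 5656 genes of any kind that had a probe set of their own. They were 47 genes of the large subunit, 5 of them P stalk genes, and 33 of the small subunit. All 80 were among the 4243 genes whose mean log2 signal exceeded the filter on low values. A further 54 genes, in 27 pairs, were covered only by probe sets listed for both copies and are described separately.

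Both strains had the BY4741 background of Saccharomyces cerevisiae, a haploid laboratory line. One group was the unmodified parent (3 biological replicates), and the other was its Δrsf2 derivative (2 biological replicates), in which YJR127C, also called ZMS1, is deleted. Every culture grew in 50 ml of rich medium with glycerol as its only carbon source, and cells were taken at an A600 of 0.6. Poly(A) RNA of each culture went to 1 single-colour array. The labels do not say whether the replicates of Δrsf2 came from separate clones.

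The yeast cytosolic ribosome joins a large subunit, which forms peptide bonds, and a small subunit, which reads the mRNA. Many of its proteins are encoded by a pair of near-identical genes, called A and B, left by an ancient duplication of the genome. Transcription of these genes takes a large part of the polymerase II activity of a growing cell and is controlled as one regulon by Rap1, Fhl1, Ifh1, Sfp1 and the TOR pathway. It falls in stress and on poor carbon sources. In bulk RNA, a change of a transcript's share cannot be told apart from a change in the total mRNA of the cell.

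The deleted gene was read first. RSF2 signals as deposited were 203.8, 253.9 and 415.9 in wild-type replicates 1 to 3 and 1.9 and 3.3 in the mutant ones. Both mutant signals lay under the floor of 28.1, and RSF2 was at least 10.4-fold lower in Δrsf2 (log2 difference -3.31 ± 0.55 SE, limma adjusted p = 0.133, range 2.99e-05 to 1.00 over the 20 alternatives). One mutant array had been deposited at a 2% trimmed mean of 100.1 and the other 4 arrays at 500.3 to 500.7, so each array was scaled to 500. Arrays also differed in the CreX spike-in control. The scaled CreX signal was high in 1 culture of each strain, wild-type replicate 1 (56025) and Δrsf2 replicate 1 (59709). Those of wild-type replicates 2 (9393) and 3 (3417) and Δrsf2 replicate 2 (2715) were low. These are called the high and the low spike-in set. They were defined from the data, each holds both strains, and many results below are also given within them. A result printed without these values may still differ between the sets. For ACT1 the 3' probe set over the 5' one, which reads RNA or cDNA length, gave 2.76, 2.28 and 1.69 in wild-type and 4.91 and 1.55 in mutant cultures.

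Ribosomal protein transcripts differed more between cultures of one strain than between strains. The median scaled signal of the 47 large-subunit genes was 10191, 5218 and 3573 in wild-type replicates 1 to 3, and it was 10558 in the first and 4480 in the second mutant culture. The median of the 33 small-subunit genes was 11903, 5339 and 3773 in wild-type and 11967 and 4652 in mutant cultures. In both subunits wild-type replicate 1 and Δrsf2 replicate 1 were high, the other 3 arrays were low, and the strains overlapped. Mean large-subunit medians were 6327 ± 3446 (SD, n = 3) for wild-type and 7519 ± 4298 (SD, n = 2) for mutant cultures, and small-subunit ones were 7005 ± 4313 and 8310 ± 5173. The difference between strains was in each case smaller than the spread within a strain.

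**Figure D1:**
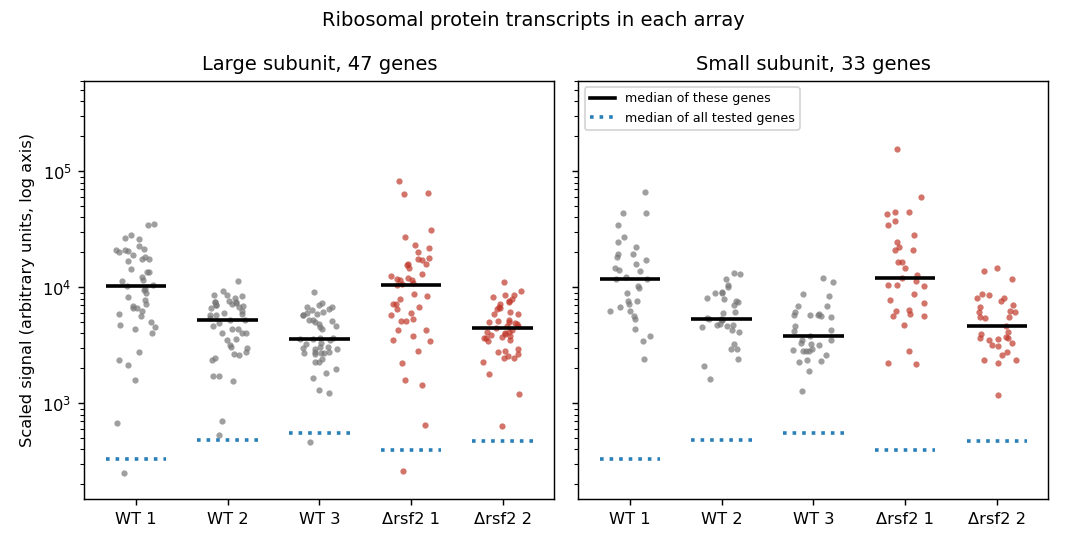
Scaled signal (arbitrary units, log axis) of each ribosomal protein gene in each of the 5 arrays, with large-subunit genes at left and small-subunit genes at right. Each point is a gene, black bars are the median of the points, and dotted blue bars are the median of all tested genes. The medians of wild-type replicate 1 and Δrsf2 replicate 1 are 10191 or more in both subunits, and those of the other 3 arrays sit between 3573 and 5339.

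The same split held gene by gene. Both arrays of the high spike-in set exceeded all 3 arrays of the low set for 66 of the 80 ribosomal protein genes (82.5%), 38 of 47 in the large and 28 of 33 in the small subunit. Among all tested genes 413 of 4243 did so (9.73%). The opposite order, with both high-set arrays lowest, was seen for 2 ribosomal protein genes and for 1292 of all genes. Ribosomal protein genes took 16.6, 9.51 and 7.40% of the summed signal of all genes with their own probe set in wild-type and 19.4 and 8.53% in mutant cultures, means of 11.2 ± 4.83 (SD, n = 3) and 14.0 ± 7.68 (SD, n = 2). The ACT1 ratio and the spike-in signal were highest in the same 2 arrays, and their part in this split was not tested. Across the wild-type replicates the median SD per gene on the log2 scale was 0.82 for ribosomal protein genes and 0.48 for all tested genes. The difference between the 2 mutant arrays had a median size of 1.21 and 0.79, respectively.

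No ribosomal protein gene passed the test between Δrsf2 and wild type. In the limma fit over all 4243 genes the smallest adjusted p of a member was 1.00, and 0 of 80 were under 0.05, where 0% of all tested genes were. At an unadjusted p under 0.05 there were also 0 of 80, beside 3.23% of all tested genes. By value alone, 36 of 47 large-subunit genes were higher in Δrsf2 (median log2 difference 0.13) and 25 of 33 small-subunit genes were (median 0.23), where 47.7% of all tested genes were higher (median -0.03). The small-subunit median turned to -0.06 after quantile normalisation, where the median of all tested genes was -0.08. Without rescaling the deposited arrays both subunit medians were below 0 (-1.03 and -0.93), where the median of all tested genes was itself -1.19. The sizes were small beside their errors: 64 of the 80 differences were within 0.5 on the log2 scale, and 71 were smaller than their own SE.

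Measured against the mean of all 3 wild-type arrays, which mixes both spike-in sets, the surplus of higher values lay in Δrsf2 replicate 1. Relative to the wild-type mean, 70 of 80 members were higher in Δrsf2 replicate 1 and 15 were higher in Δrsf2 replicate 2. In 60 genes the first was above and the second below the wild-type mean. Only 10 genes were above it in both and 5 were below it in both. Within the spike-in sets, large-subunit genes had a median difference of -0.17 in the high set (Δrsf2 replicate 1 minus wild-type replicate 1) and 0.13 in the low set (Δrsf2 replicate 2 minus the mean of wild-type replicates 2 and 3). Small-subunit genes had 0.03 and -0.11, and all tested genes 0.21 and -0.11. By count, 18 of 47 large-subunit genes were higher in the mutant in the high set and 32 of 47 in the low set. For the small subunit these were 19 and 13 of 33, and for all tested genes 2553 and 1876 of 4243. The sign was the same in both sets for 34 of the 80 genes. Without Δrsf2 replicate 1 the medians were -0.32 for the large and -0.43 for the small subunit, and without Δrsf2 replicate 2 they were 0.62 and 0.98.

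**Figure D2:**
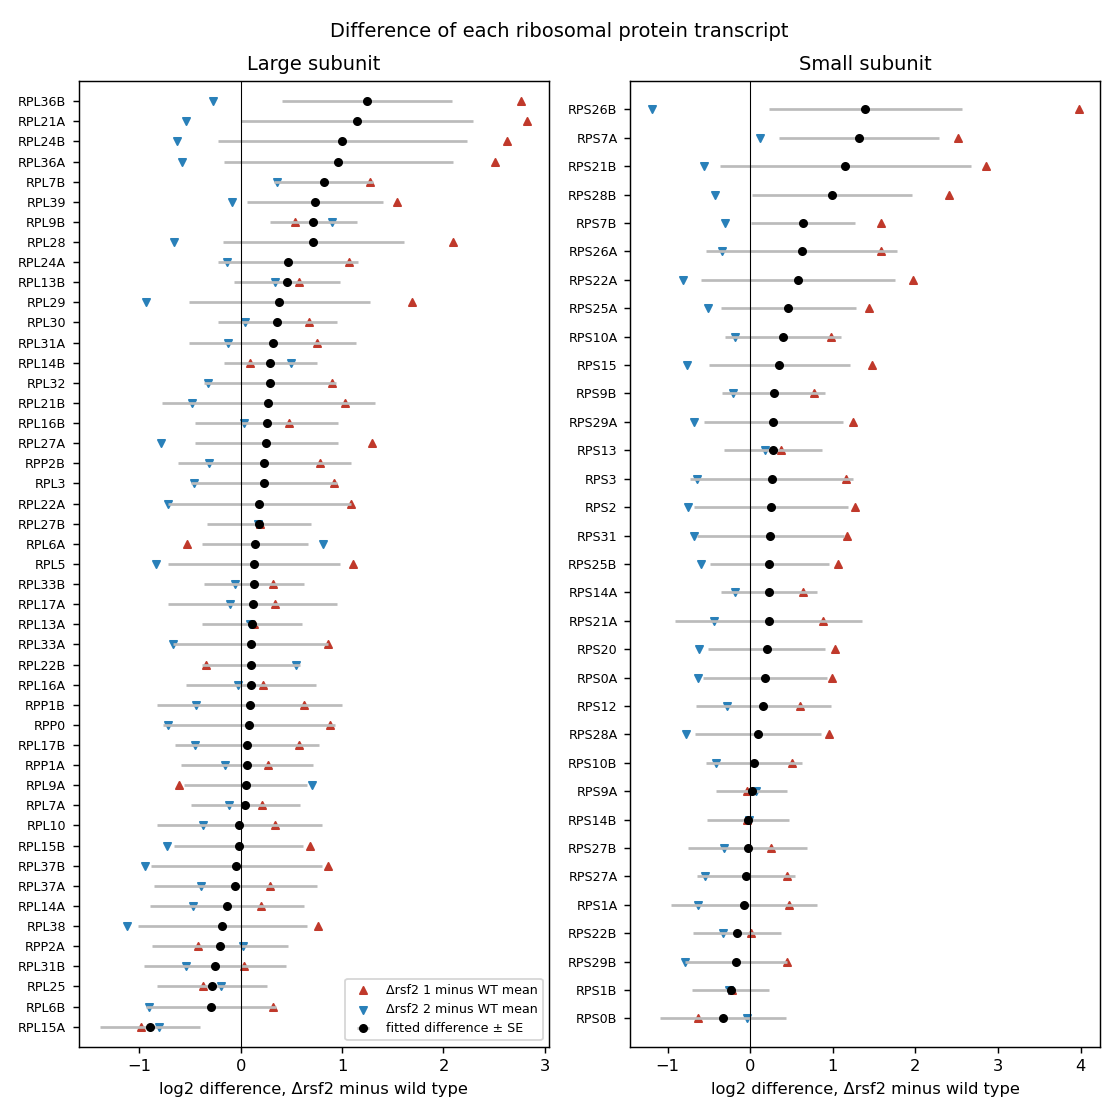
Log2 difference between Δrsf2 and wild type for each large-subunit gene (left) and small-subunit gene (right), ordered by the fitted value. Black points with grey bars are fitted differences ± SE, red triangles are Δrsf2 replicate 1 and blue triangles Δrsf2 replicate 2, each minus the mean of 3 wild-type arrays. In 60 of 80 genes the red triangle lies right of 0 and the blue one left of it.

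Without overlap means that both mutant signals lay above, or both below, all 3 wild-type signals. For 3 ribosomal protein genes they lay above, all in the large subunit, where 6.74% of all tested genes did. For 2 they lay below, RPL15A and RPS1B, where 8.27% of all tested genes did. For the other 75 members the strains overlapped.

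RPL15A, which encodes one copy of a core protein of the large subunit, had the smallest p of the 80 members. Its signals were 5019, 2674 and 2256 in wild-type and 1576 and 1783 in mutant cultures. Both mutant cultures were below every wild-type culture, including the wild-type one of the low spike-in set with the lowest signal. The log2 difference was -0.90 ± 0.50 (SE), with an unadjusted p of 0.0965 and a limma adjusted p of 1.00. It was -1.67 within the high and -0.46 within the low spike-in set, and it stayed negative in all 19 alternatives that gave a value (-2.06 to -0.46). RPL15B, the other copy, had 7184, 2757 and 2691 in wild-type and 6061 and 2273 in mutant cultures, a difference of -0.02 ± 0.64 in which the strains overlapped. A probe set listed for both copies gave 13310, 7431 and 5213 against 7287 and 3948, a difference of -0.58 in which they also overlapped.

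The large-subunit genes with the highest differences were RPL36B, RPL21A, RPL24B, RPL36A, RPL7B and RPL39. RPL36B, a copy of the gene for protein eL36, had signals of 5940, 2374 and 1830 in wild-type and 20129 and 2449 in mutant cultures. The first mutant culture was the highest of the 5 and the second lay inside the wild-type range. The difference of 1.25 ± 0.84 (SE) was -0.27 without Δrsf2 replicate 1 and 2.77 without Δrsf2 replicate 2. It was 1.76 within the high set and 0.23 within the low one. The other copy, RPL36A, followed the same order with 26269, 8502 and 6760 against 65251 and 7665 (0.96 ± 1.13). RPL21A, which encodes eL21, had 26471, 5857 and 4541 against 63212 and 6135 (1.15 ± 1.15). RPL24B encodes eL24, which reaches across to the small subunit, and had 34489, 9345 and 7359 against 82446 and 8632 (1.00 ± 1.23). Each of these genes was highest in Δrsf2 replicate 1, next in wild-type replicate 1, and low in the remaining 3 arrays. Without Δrsf2 replicate 1 their differences were -0.58 for RPL36A, -0.54 for RPL21A and -0.63 for RPL24B. Within the high and the low spike-in set they were 1.31 and 0.02 for RPL36A, 1.26 and 0.25 for RPL21A, and 1.26 and 0.06 for RPL24B. RPL39 encodes a small protein that lines the exit tunnel of the nascent chain, and its signals were 6861, 3604 and 2723 against 11870 and 3836 (0.73 ± 0.67, or -0.08 without Δrsf2 replicate 1, and 0.79 and 0.29 within the sets).

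RPL7B, RPL9B and RPL14B were the 3 genes higher in both mutant cultures than in any wild-type one. That order by itself excludes the spike-in split, which needs wild-type replicate 1 above Δrsf2 replicate 2. RPL7B, for protein uL30, had 2360, 1717 and 2266 in wild-type and 5081 and 2679 in mutant cultures (0.82 ± 0.49 SE). Its differences within the high and the low set were 1.11 and 0.44. RPL9B, for uL6, had 1595, 1735 and 1291 against 2215 and 2843 (0.72 ± 0.43), with 0.47 and 0.93 within the sets. RPL14B, for eL14, was named after its values were seen. It had 2755, 2464 and 2786 against 2833 and 3759 (0.29 ± 0.46), so its lower mutant signal was close to the highest wild-type signal. A second probe set of RPL7B gave -0.13.

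At the lower end of the large subunit, after RPL15A, stood RPL6B, RPL25, RPL31B, RPP2A and RPL38. RPL25, whose protein sits at the tunnel exit and is bound there by factors that receive the nascent chain, had 6631, 4006 and 3257 against 3415 and 3857 (-0.29 ± 0.54 SE). RPL6B had 8879, 3071 and 3665 against 5797 and 2480 (-0.29 ± 0.64). RPL31B had 13662, 8156 and 5739 against 8780 and 5931 (-0.26 ± 0.70). In all 3 the mutant signals were within or near the wild-type range, and each difference was smaller than its SE. RPL38 had 17692, 7301 and 5068 against 14747 and 3973 (-0.18 ± 0.83).

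The P stalk is a flexible arm of the large subunit that recruits the elongation factors, built from the scaffold protein P0 and the small acidic proteins P1 and P2. Its 5 genes showed little difference by strain, with a median of 0.08. RPP0, for the scaffold, had 20008, 5724 and 5192 in wild-type and 15490 and 5122 in mutant cultures (0.08 ± 0.85 SE). RPP1A had 10554, 4645 and 3604 against 6768 and 5048 (0.06 ± 0.65). RPP1B had 28309, 7545 and 6745 against 17381 and 8291 (0.09 ± 0.91). In these 3 genes wild-type replicate 1 was the highest array and Δrsf2 replicate 1 the second. RPP2B followed the same order with 21564, 7057 and 5178 against 15826 and 7414 (0.23 ± 0.85). RPP2A alone did not, with 11623, 5458 and 3086 against 4321 and 5906 (-0.20 ± 0.67). Within the high spike-in set 0 of 5 stalk genes were higher in the mutant (median -0.64), and within the low set 4 of 5 were (median 0.29). Every stalk gene overlapped between strains.

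In the small subunit the highest differences belonged to RPS26B, RPS7A, RPS21B, RPS28B, RPS7B and RPS26A. RPS26B encodes eS26, which lies at the exit of the mRNA channel, and its signals were 5288, 2929 and 1266 in wild-type and 42626 and 1179 in mutant cultures. The first mutant culture was far above and the second below all wild-type cultures. The difference of 1.39 ± 1.17 (SE) therefore became 3.98 without Δrsf2 replicate 2 and -1.19 without Δrsf2 replicate 1, and within the sets it was 3.01 and -0.71. RPS26A, the other copy, had 43779, 9102 and 8356 against 44674 and 11819 (0.62 ± 1.15). RPS21B, for eS21, had 66134, 13360 and 11150 against 155763 and 14595 (1.15 ± 1.52, or -0.55 without Δrsf2 replicate 1). RPS28B, whose protein lies beside eS26, had 14810, 7091 and 5733 against 44714 and 6263 (0.99 ± 0.97, or -0.43 without Δrsf2 replicate 1). These genes repeat the order of the large-subunit leaders, high in Δrsf2 replicate 1 and inside the wild-type range, or under it, in Δrsf2 replicate 2.

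RPS7A, a copy of the gene for eS7, had the smallest p of the small subunit. Its signals were 17318, 4862 and 3291 in wild-type and 37411 and 7053 in mutant cultures (1.32 ± 0.96 SE, unadjusted p = 0.198, limma adjusted p = 1.00). The difference was 1.11 in the high and 0.82 in the low set. Among the other small-subunit leaders, the difference was also above 0 in both for RPS21B (1.24 and 0.26) and RPS26A (0.03 and 0.44). That of RPS7A was above 0 in all 19 alternatives, from 0.11 to 2.52, although the strains overlapped through wild-type replicate 1. A second probe set of RPS7A gave 0.39. RPS7B, the other copy, had 4370, 2433 and 2336 against 8747 and 2361 (0.64 ± 0.63), and its differences within the sets were 1.00 and -0.01.

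The lowest small-subunit differences were those of RPS0B, RPS1B, RPS29B, RPS22B, RPS1A and RPS27A. RPS0B, a copy of the gene for uS2, had 19503, 6016 and 5876 against 5709 and 8595 (-0.33 ± 0.76 SE), so the mutant cultures were in the reverse order of most members. Its differences were -1.77 within the high and 0.53 within the low set. RPS1B, for eS1, had 3474, 2962 and 3500 against 2844 and 2759 (-0.24 ± 0.46). Both mutant signals were under all wild-type signals, by a small margin, and the sign held in all 18 alternatives that gave a value. RPS1A had 24650, 10004 and 6861 against 16548 and 7689 (-0.08 ± 0.88). RPS29B had 7207, 4599 and 2849 against 6203 and 2625 (-0.17 ± 0.62). RPS22B had 5712, 4712 and 3773 against 4688 and 3702 (-0.16 ± 0.53), but its other probe sets gave 0.37 and 0.04. RPS27A had 6770, 5339 and 4229 against 7294 and 3673 (-0.05 ± 0.59).

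**Figure D3:**
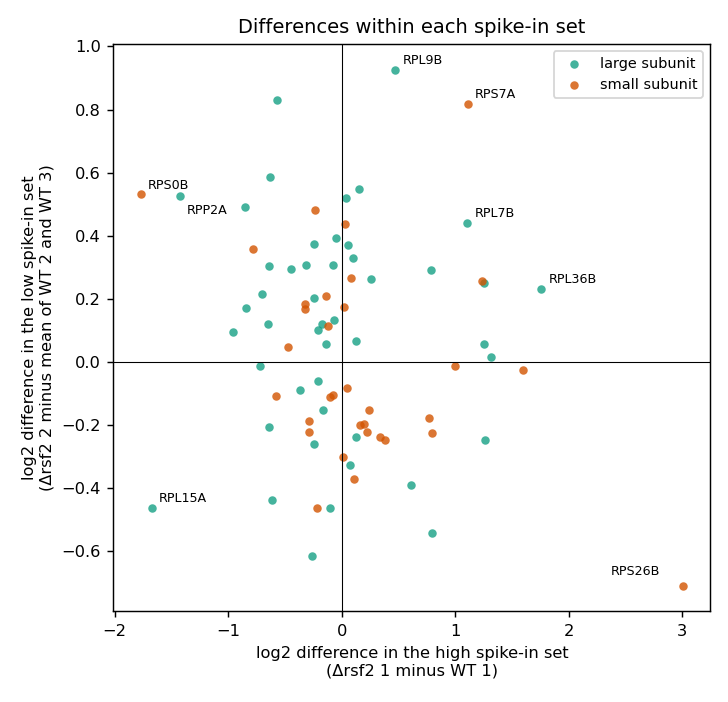
Log2 difference of each of the 80 ribosomal protein genes within the low spike-in set (vertical axis) against that within the high spike-in set (horizontal axis), coloured by subunit. Genes at upper right were higher and genes at lower left lower in the mutant in both sets, which holds for 34 of 80 genes. RPL7B, RPL9B, RPL36B and RPS7A are at upper right, RPL15A is at lower left, and RPS26B is at 3.01 and -0.71.

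With 1 mutant array left out, some members passed the test. Without Δrsf2 replicate 2, limma gave adjusted p under 0.05 to 2 ribosomal protein genes, where 1.41% of all tested genes passed. They were RPS26B (log2 difference 3.98, adjusted p = 0.0149) and RPL36B (2.77, adjusted p = 0.0471). The lone mutant array is there assumed to vary like the wild type. Over all alternatives the adjusted p of RPS26B ran from 0.0149 to 1.00 and that of RPL36B from 0.0471 to 1.00.

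The arrays were also centred on the median of the 80 members, a setting chosen after seeing the data, so that a gene is read against the other ribosomal protein genes of its own array. The median SD among wild-type replicates then dropped to 0.27 from 0.82 on the log2 scale. The strains overlapped in 74 of the 80 members. RPL39 (0.49) and RPL24A (0.23) were higher in both mutant arrays, beside 0.354% of all tested genes. RPL15A (-1.13), RPL6B (-0.53), RPS29B (-0.41) and RPS1A (-0.31) were lower in both, beside 3.06% of all tested genes. These shares of all genes rest on a scaling fitted to the members and are not a like-for-like background for them. RPL24A was named after its values were seen.

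Paralog pairs compare 2 genes inside one array, so that what is common to both copies cancels. Both copies had a probe set of their own in 31 pairs, 18 of the large and 13 of the small subunit. The level of one probe set cannot be set against that of another, so only the change of the log2 ratio of A over B between strains was read. The median SD of the ratio among wild-type replicates was 0.34, against 0.75 for the A or B genes singly. The ratio was higher in Δrsf2 in 14 pairs and lower in 17, with a median size of change of 0.43 and a range of 0.01 to 0.93. In 19 pairs the change was under 0.5 and in 0 over 1. The 2 copies differed from wild type in the same direction in 23 of 31 pairs. In 27 pairs the strains overlapped.

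The pairs without overlap were RPL7, RPL13, RPL36 and RPL31. The ratio was lower in both mutant cultures than in all wild-type ones in the first 3 and higher in RPL31. Of all tested genes, read singly, 15.0% did not overlap between strains. No such share was computed for ratios of other gene pairs, so these pairs are given as a description. With 3 against 2 arrays there are 10 splits and the smallest two-sided p of an exact permutation test is 0.1, so the design cannot reach 0.05. The log2 ratio of RPL7A over RPL7B was 1.26, 1.04 and 0.96 in wild-type and 0.01 and 0.61 in mutant cultures, a change of -0.77 (exact permutation p = 0.1). It was -1.25 within the high and -0.38 within the low spike-in set and was negative in all 18 alternatives. The RPL7A transcript itself had 5640, 3519 and 4398 against 5119 and 4096, so on these probe sets the change lay with RPL7B. Both sets may bind a related transcript, and a set listed for both copies gave 0.08. Other sets of a single copy gave -0.13 for RPL7B and -0.22 and -0.05 for RPL7A. With the mean of each gene's probe sets the RPL7 change was -0.42. For RPL31 the ratio was 0.46, -0.14 and 0.06 against 0.86 and 0.54 (change 0.57, exact permutation p = 0.2). It too depended on the probe sets used, where RPL31A had 0.31 and RPL31B -0.26. Their other sets gave -0.04 for RPL31A and 0.55 and 0.08 for RPL31B. With the mean of each gene's probe sets, the strains did not overlap in 3 of 31 pairs. For RPL13 it was -0.13, -0.29 and -0.01 against -0.59 and -0.39 (change -0.35, exact permutation p = 0.2). For RPL36 it was 2.14, 1.84 and 1.89 against 1.70 and 1.65 (change -0.29, exact permutation p = 0.2). The last of these is a small, even step in a pair whose members each varied widely between cultures. RPL31A, RPL13A and RPL13B were named after their ratios were seen.

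The largest changes of ratio were those of RPS21, RPS28, RPL15, RPL21, RPS26, RPL7, RPS22 and RPS7, and most rested on Δrsf2 replicate 1. For RPS21 the ratio was -0.61, -0.05 and 0.10 in wild-type and -2.17 and -0.07 in mutant cultures (change -0.93, exact permutation p = 0.4). For RPL15 it was -0.52, -0.04 and -0.25 against -1.94 and -0.35 (change -0.88, exact permutation p = 0.2). For RPS28 it was -0.32, -0.21 and -0.84 against -1.90 and -0.80 (change -0.90, exact permutation p = 0.3), but with the mean of each gene's probe sets the RPS28 change was 0.01. In these 3 pairs the first mutant culture stood apart and the second lay in or near the wild-type range. The RPS26 ratio went opposite ways, with 3.05, 1.64 and 2.72 against 0.07 and 3.33 (change -0.77, exact permutation p = 0.7). RPS26B differed from the wild-type mean by 3.98 in Δrsf2 replicate 1 and by -1.19 in Δrsf2 replicate 2, and RPS26A by 1.58 and -0.34. In RPS7 both mutant ratios lay above the wild-type mean, with 1.99, 1.00 and 0.49 against 2.10 and 1.58 (change 0.68, exact permutation p = 0.3). Of the 11 pairs named by rule, RPL15, RPL7 and RPS7 kept the sign of the change in all alternatives.

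At the other end, RPP1, RPS27 and RPL37 had the smallest changes of ratio. RPP1, the pair of acidic stalk genes, changed by -0.03 and RPS27 by -0.01. RPL37 also had -0.01, but its arrays were not alike: the ratio was 0.18, -0.07 and -0.07 in wild-type and -0.56 and 0.56 in mutant cultures, so opposite values averaged out.

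**Figure D4:**
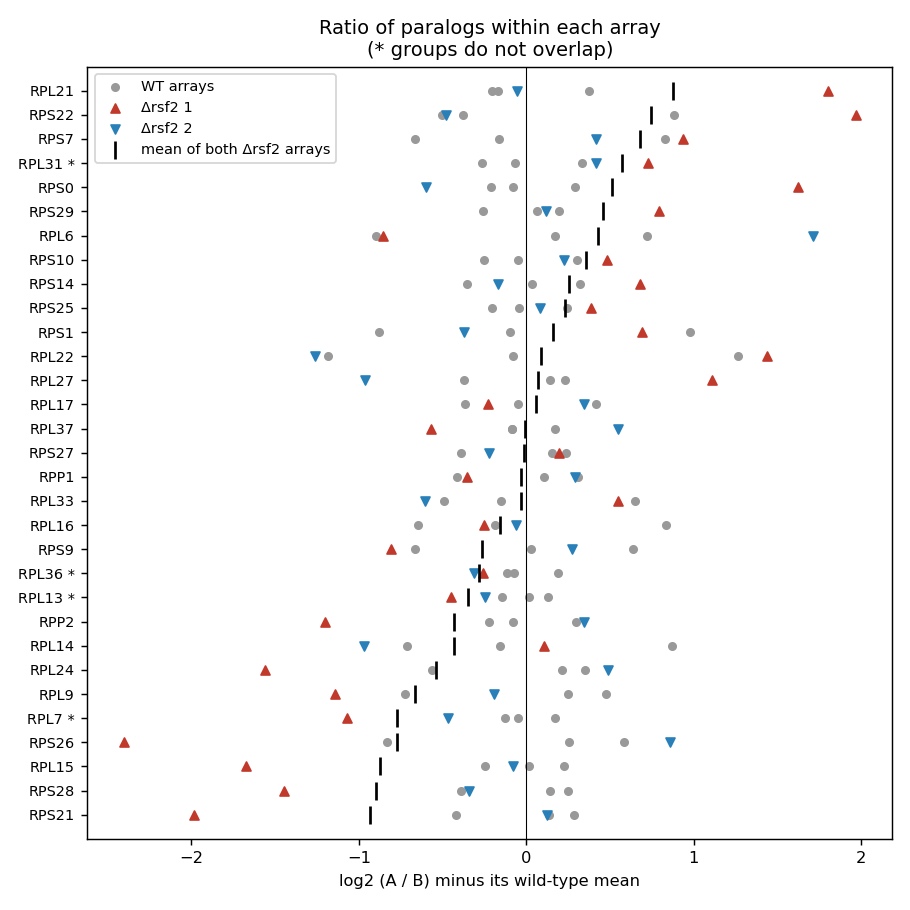
Log2 ratio of the A over the B copy in each array, minus its wild-type mean, for 31 pairs of ribosomal protein genes ordered by the change between strains. Grey points are wild-type arrays, red and blue triangles the 2 mutant arrays, and black ticks their mean. The asterisks mark RPL31, RPL36, RPL13 and RPL7, the 4 pairs in which the strains do not overlap.

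The 80 members were read on 105 probe sets. For each gene the set with the highest mean was used, and 21 genes had more than 1. In 10 of these 21 the sets differed in the sign of the difference. RPS28B ranged from -0.09 to 0.99, RPL31B from -0.26 to 0.55 and RPL7B from -0.13 to 0.82. Of the 80 sets used, 50 were of the gene-specific type and 30 carried the suffix _f or _i. Sets with either suffix may be less specific to 1 gene, which touches A and B copies most. Binding of related transcripts was not tested. The 27 pairs with only shared probe sets gave similar values, without separating the copies. Their difference was above 0 in 21 of 27, with a median of 0.28, from -0.40 for RPL11 to 1.83 for RPL41, and the strains overlapped in all 27. RPL41, the shortest protein of the ribosome, had 828, 391 and 205 in wild-type and 5354 and 387 in mutant cultures. It again was high in Δrsf2 replicate 1 and inside the wild-type range in Δrsf2 replicate 2.

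The 18 ribosomal protein genes without a paralog letter had a median difference of 0.25, with 15 higher and 3 lower by value, and the 62 with A or B had 0.16, with 46 higher and 16 lower. Some members lie next to each other on a chromosome. RPL24A and RPL30, which point away from each other, had 0.46 and 0.36, and the divergent RPS22A and RPL39 had 0.58 and 0.73. The divergent RPS15 and RPP2A had 0.35 and -0.20, and the neighbours RPS9B and RPL21A, on the same strand, had 0.28 and 1.15. These neighbours were looked up after the values were seen and are given as a description.

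Lists of genes that act with the ribosome were mixed or mostly lower by value in Δrsf2, and 0 of their genes passed the adjusted test. Among 19 regulators of ribosomal protein genes 16 were tested, and 7 were higher and 9 lower by value (median -0.11). KOG1, a subunit of TOR complex 1, had 164, 362 and 219 in wild-type and 110 and 115 in mutant cultures (-1.07 ± 0.59 SE), below all wild-type arrays. LST8, also of TOR complex 1, had -0.77 ± 0.58. RAP1, the general activator of ribosomal protein genes, had -0.09, SFP1 had 0.39 and SCH9, the kinase below TOR, had -0.14. FHL1, IFH1 and TOR1 did not exceed the filter. The dedicated chaperones that escort single ribosomal proteins were lower in 4 of 6 tested, with a median of -0.36. That median was 0.57 within the high spike-in set, where 5 of 6 were higher, and -0.52 within the low set, where 0 of 6 were. YAR1, the chaperone of Rps3, had -0.49 ± 0.44 and SQT1, that of Rpl10, had -0.36 ± 0.45. RPS3 and RPL10 themselves had 0.26 and -0.02.

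Among chaperones on the ribosome, 3 of 5 tested were higher and 2 lower. ZUO1, which binds at the tunnel exit, had 1762, 1359 and 1571 against 1086 and 791 (-0.75 ± 0.42 SE), without overlap, and its partner SSZ1 had -0.37 ± 0.43. Initiation factors were lower by value in 15 of 23 (median -0.26), among them GCD7, a subunit of eIF2B, with 291, 544 and 855 against 219 and 283 (-1.04 ± 0.59). TIF6, which keeps immature large subunits from joining, had 1651, 1810 and 1751 against 617 and 1736 (-0.75 ± 0.50). Its low value was that of Δrsf2 replicate 1, and within the high and the low spike-in set the difference was -1.42 and -0.04. Elongation and termination factors were lower in 6 of 10 (median -0.24). HEF3, the second copy of elongation factor 3, had 275, 107 and 576 against 395 and 2324 (1.90 ± 0.83, unadjusted p 0.042, adjusted p not under 0.05), while YEF3, the main copy, had -0.53 ± 0.54. RNA polymerase I genes were higher in 5 and lower in 6 of 11 (median -0.03, or 0.57 within the high and -0.20 within the low spike-in set). RPA135, its second largest subunit, had 0.58 ± 0.58 and RRN10 -0.28 ± 0.80.

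General stress genes, which oppose ribosomal protein genes in many conditions, followed another order of arrays by their median. Of 20 tested, 15 were higher by value in Δrsf2, with a median of 0.43. Their median relative to the wild-type mean was 0.40, -0.17 and -0.01 in the wild-type arrays and -0.28 and 0.84 in Δrsf2. The corresponding medians of the ribosomal protein genes were 0.91, -0.21 and -0.65 in wild-type and 0.76 and -0.40 in mutant cultures. By these medians the mutant arrays stood in opposite order in the 2 groups. Δrsf2 replicate 1 was high in ribosomal protein and Δrsf2 replicate 2 in stress transcripts. HSP12, DDR2, HSP26 and SSA4 were instead higher in Δrsf2 replicate 1 than in Δrsf2 replicate 2, unlike the rest of the tested list. Within the high spike-in set 7 of 20 stress genes were higher in the mutant (median -0.31). Within the low set 20 of 20 were (median 0.79), where medians of all tested genes were 0.21 and -0.11. SSA4, a heat-inducible Hsp70, had 1360, 340 and 908 against 3924 and 2288 (2.00 ± 0.58 SE), higher in both. ALD3, a stress-induced aldehyde dehydrogenase, had 1347, 485 and 536 against 1150 and 7049 (2.01 ± 0.71), and its high value was that of Δrsf2 replicate 2.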

How the data were processed

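Cultures of the wild type (3) and of Δrsf2 (2), which the titles call biological replicates, were each read on 1 single-colour array. The authors deposited a linear intensity for every probe set, computed in MAS5 per the submitters' processing notes. Its settings and detection calls are not given in the sources used here, and the number of arrays limits the precision.

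Arrays were brought to a common 2% trimmed mean of 500 over all 9335 probe sets, 60 controls included, trimmed at each end, with no quantile step. Values under the 10th percentile of single-gene probe sets (28.1) were set to it and log2 was taken. The 6504 single-gene probe sets were matched by gene identifier to the RefSeq gene table of assembly R64, used for names and neighbours only. Of 5656 genes, 315 had several sets, and the one of highest mean was used. Genes under the 25th percentile of mean log2 signal (a signal of 129) did not enter the fit, except RSF2. Strains were compared with limma 3.58.1 in R 4.3.3 (lmFit, eBayes with trend) on the 5 arrays together, the strain being the sole factor, and p-values were adjusted by Benjamini-Hochberg over 4243 genes at a threshold of 0.05. The procedure was tested on simulated data. Paralog ratios were compared by two-sided exact permutation of the arrays.

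Named genes were RSF2, in each subunit the 6 highest and 6 lowest differences and the 3 smallest p, the P stalk, the 8 pairs with the largest and 3 with the smallest change of ratio, and, from each of 7 lists, at most 2 genes by smallest p. Members and lists were chosen with earlier results of these data known. In all 20 alternatives were run, covering scaling, floor, filter, probe sets, weights, trend, blocks and arrays left out. The treatment text of the labels describes a timed shift from dextrose absent from the series design, so no time entered the comparison.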

Additional observations from a re-analysis of the deposited data

How the results depend on the processing

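In the main setting 0 of 4243 genes and 0 ribosomal protein genes were called, 3 members were higher and 2 lower without overlap, and 4 pair ratios did not overlap. Shares of all tested genes under the same setting follow in parentheses, higher then lower. The counts of pairs have no such share beside them. Quantile normalisation gave 5 higher and 9 lower members (7.33 and 12.7%), and centring on array medians 0 and 1 (6.25 and 11.3%). The values as deposited gave 0 and 15 (0 and 25.5%), with medians of -1.03 (large) and -0.93 (small). A trimmed mean without ribosomal proteins gave 2 higher and 1 lower member (7.66 and 8.98%). No floor called 1 gene, and so did the stricter filter. Specific probe sets alone gave 0 higher, 1 lower (6.73 and 8.37%) and 1 pair of 15. Centring on the ribosomal protein median, chosen after seeing the data, gave 4 lower members (3.06% of all tested genes) and called 1 gene. Omitting both high spike-in arrays called 442 genes, with 29 higher and 18 lower members (33.04 and 46.8%) and 23 pairs. The spike-in set as a block gave medians of 0.01 and -0.03.

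Leaving out 1 array at a time called 0 to 60 genes and 0 to 2 members, with 3 to 36 higher members, 2 to 18 lower members and 5 to 23 pairs. The large median ran from -0.32 to 0.62 and the small one from -0.43 to 0.98. By array, 24 members were higher without wild-type replicate 1 (10.1% of all tested genes), 4 lower without wild-type replicate 3 (9.73%), 18 lower without Δrsf2 replicate 1 (26.0%), and 36 higher without Δrsf2 replicate 2 (24.8%). Where 1 array is left in a strain, no overlap is easier to reach.

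With the replicate number as a block, limma called 2 genes and 0 members, and both medians were -0.11. Only 2 numbers are shared. Deviations of same-numbered arrays correlated at 0.27 and -0.09, and those of wild-type replicate 3 and Δrsf2 replicate 2 at 0.47. The deviations of 2 mutant arrays mirror each other, so these values are not separate checks and do not establish a pairing. Of 53 named genes 16 kept their sign in all alternatives. The causes of these shifts were not tested. The median SD of members among wild-type replicates was 0.82, and 71 of 80 differences were smaller than their SE.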
